A study of Mus musculus with 24 samples.

Results

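Macrophages grown from the bone marrow of wild-type mice were measured after 24 h of LPS and interferon-γ, and were set against cells of the same animals at 0 h, harvested just before the stimulus. The arrays were chosen by their labels alone: genotype GCHfl/fl at 24 hrs (3 arrays) and GCHfl/fl at 0 hrs (3 arrays), which are 6 of the 24 arrays of the series. Animals 2, 3 and 6 each gave an array at both times, and values are given below in that order of animals. Of the 45281 probes on the array, 16498 were tested, those with a detection p below 0.01 on at least 3 of the 24 arrays. They covered 8875 named genes, and each gene is shown by its brightest tested probe. The comparison describes the late wild-type response, against which the study set macrophages that lack Gch1, a gene needed to make tetrahydrobiopterin, the cofactor of the nitric oxide synthases.

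The wild-type cells came from adult female C57bl/6J mice with floxed Gch1 alleles, in which loxP sites lie around exons 2 and 3, and no Tie2cre transgene, so that Gch1, which encodes GTP cyclohydrolase, was intact. The other genotype, Gch1fl/flTie2cre, carried the same floxed alleles and a Cre driven by the Tie2 promoter, which is active in endothelial and blood-forming cells and is thus not confined to macrophages. Marrow cells matured for a week in medium conditioned by L929 fibroblasts, were plated in serum-free OPTIMEM with low-endotoxin albumin and kept briefly without serum before the stimulus. No unstimulated cells kept for 24 h in that medium were analysed here. The effect of LPS and interferon-γ and that of 24 h more in serum-free medium therefore cannot be told apart. In each bulk culture, a change in RNA per cell and a change in the share of cells of a kind cannot be told apart either.

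LPS, a component of the outer membrane of Gram-negative bacteria, is sensed by Toll-like receptor 4 and sets off NF-κB and interferon regulatory factors. Interferon-γ, made by T and NK cells, acts on macrophages through its own receptor. Together they drive macrophages to make cytokines and nitric oxide, to present antigen and to shift their metabolism towards glycolysis, while the scavenging and repair functions of resting macrophages decline. Early cytokine genes are usually switched on within hours and then damped by feedback inhibitors, so that a late time point holds a different set of transcripts from an early one.

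At 24 h, 1562 of 8875 genes (17.6%) were higher and 1343 (15.1%) were lower than at 0 h, by limma with a Benjamini-Hochberg adjusted p below 0.05 and a change over 1.5-fold. Values are normalized log2 intensities, and a change is a difference on that log2 scale, 24 h minus 0 h. The median change over all genes was 0.04. Counts of called genes in the lists below are to be read beside the shares of 17.6% and 15.1%. Of 101 other tested probes of the called genes chosen by the naming rule, 75 were called the same way, 25 did not pass and 1, of Cybb, was called the other way. Changes over 4-fold were found in 135 higher and 216 lower genes, and over 16-fold in 12 higher and 19 lower genes. The 3 arrays at 24 h and the 3 at 0 h did not overlap in 1480 of the higher and 1263 of the lower genes, while over all genes 45.3% did not overlap. Over all 8875 genes, called or not, 110 were detected on every array at 24 h and on no array at 0 h, of which 107 were called higher, and 133 were detected on every array at 0 h but on no array at 24 h, of which 122 were called lower. For genes not detected on any array of a group, folds are lower limits, taken against the lowest signal at which a probe was detected on those arrays (6.25 to 6.78) or the gene's own signal where that was higher.

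Animal 6 stood apart from animals 2 and 3, and this bears on many of the results below. Across genes, the changes of animals 2 and 3 correlated with r = 0.881, those of animals 2 and 6 with r = 0.57 and those of animals 3 and 6 with r = 0.638. Among called genes, the change of animal 6 lay more than 1 log2 unit from the nearer of the other animals in 234 higher and 346 lower genes, against 14 and 34 for animal 2 and 11 and 19 for animal 3. Leaving out an animal took the call from 65 of the 201 called genes chosen by the naming rule, 30 without animal 2, 47 without animal 3 and 24 without animal 6. Where that touches a gene whose change is described below, the value without the animal is given in the same paragraph. Mean intensity was 1750, 810.2 and 660.5 on the 24 h arrays, against 873.4, 778 and 869.2 on the 0 h arrays, and between 28.99 and 32.86% of probes were detected at 24 h, against 30.78 to 33.3% at 0 h. The part of these differences in the results was not tested.

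The highest rises were those of an acute phase protein and of arginase. Saa1, which encodes serum amyloid A1, read 13.97, 12.64 and 12.26 at 24 h, against 5.2, 5.1 and 5.09 at 0 h, where it was not detected on any array. Its level was at least 91.9-fold higher (adjusted p = 6.8e-11). A dimmer Saa1 probe, with means of 7.02 at 24 h and 5.66 at 0 h, was at least 1.5-fold higher (adjusted p = 0.00595). Arg1, which encodes the arginase that splits arginine into ornithine and urea, read 13.01, 13 and 12.51 at 24 h, against 5.12, 4.86 and 5.36 at 0 h, at least 84.8-fold higher (adjusted p = 3.1e-12). Every 24 h array of both genes stood far above the 0 h arrays, which were all at background. Cxcl9, an interferon-γ-induced chemokine that attracts T cells, read 14.37, 14.79 and 15.51 at 24 h, against 9.45, 9.33 and 8.43 at 0 h, a 56.5-fold rise. Lcn2, which encodes the siderophore-binding protein lipocalin 2, read 15.58, 15.01 and 14.95 at 24 h, against 11.17, 10.5 and 9.17 at 0 h, a 29.8-fold rise. The largest rises were ranked only among genes whose 24 h and 0 h arrays did not overlap. The brightest Lcn2 array approached the top of the scale at 15.691.

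Hmox1, which encodes the haem-degrading haem oxygenase 1, read 13.79, 13.54 and 13.38 at 24 h, against 8.89, 8.39 and 9.8 at 0 h, a rise of 4.54 ± 0.42 (SE). Gstt4, a glutathione transferase, rose at least 15.1-fold, the serine protease gene Prss46 at least 11.2-fold, Tspoap1 at least 8.92-fold and the collagen receptor gene Gp6 at least 5.83-fold, and none of these 4 was detected on any 0 h array. Haptoglobin (Hp, change 4.32 ± 0.78), the metalloproteinase inhibitor Timp1 (4.30 ± 0.46), the cationic amino acid transporter Slc7a2 (4.14 ± 0.36), the lymphocyte activation receptor Slamf1 (4.01 ± 0.55) and AA467197 (3.79 ± 0.38) completed the genes with the largest rises, together with Nos2, described below. For each of them the lowest 24 h array lay above the highest 0 h array, as the ranking required.

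**Figure D1:**
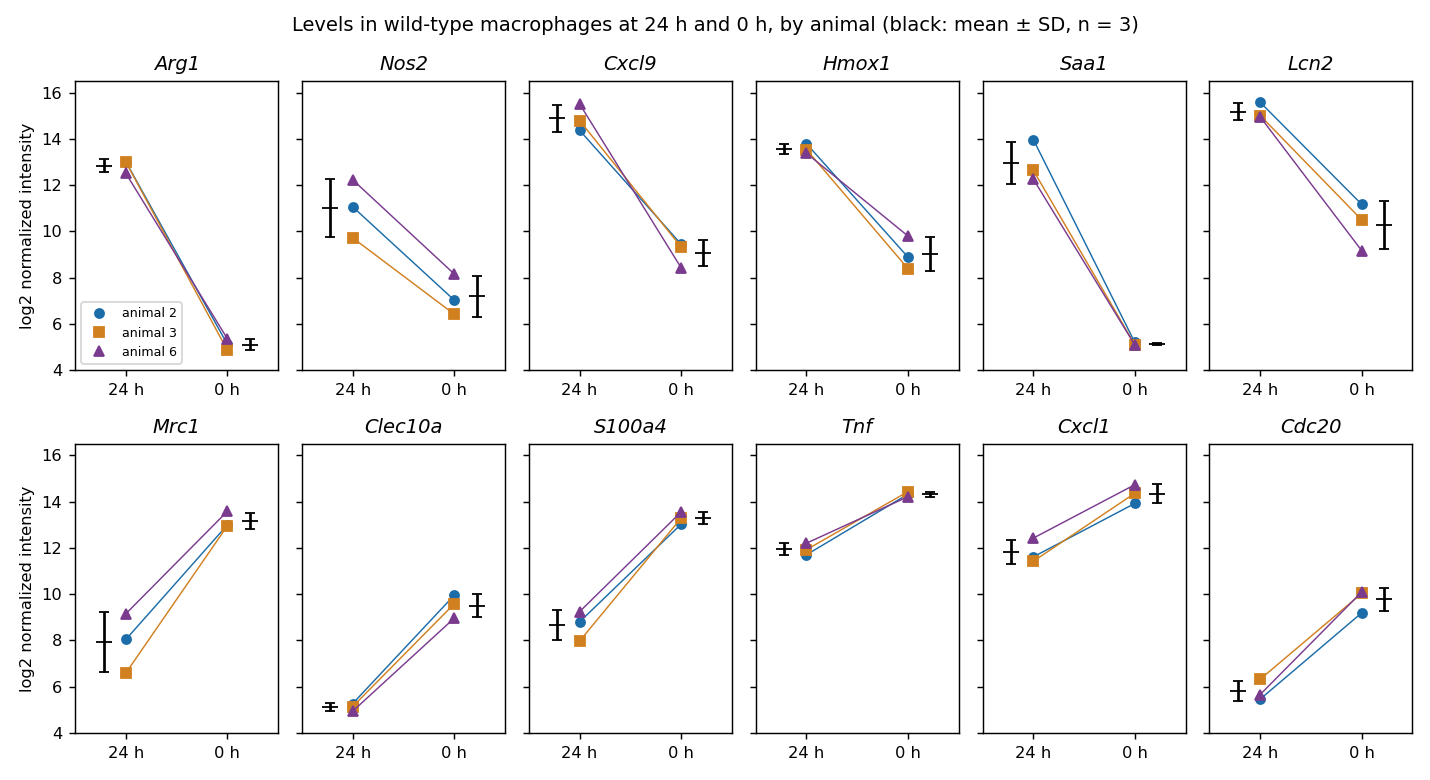
Normalized log2 intensity of 12 genes on each wild-type array, 24 h at the left and 0 h at the right of each panel; thin lines join the arrays of an animal, and black marks are the mean with its SD (n = 3). Saa1 and Arg1 lay between 12.26 and 13.97 at 24 h, while all their 0 h arrays lay at 5.36 or lower, and Mrc1, Clec10a and S100a4 ran the other way.

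The steepest falls included those of lectin receptors. Mrc1, which encodes the mannose receptor of resting and alternatively activated macrophages, read 8.04, 6.59 and 9.15 at 24 h, against 12.99, 12.95 and 13.58 at 0 h, a 38.0-fold fall (change -5.25 ± 0.43, adjusted p = 3.2e-08). Clec10a, another C-type lectin, read 5.27, 5.14 and 4.94 at 24 h and was not detected there, against 9.95, 9.58 and 8.96 at 0 h, at least 7.79-fold lower. S100a4, a calcium-binding protein linked to cell motility, read 8.8, 7.97 and 9.24 at 24 h, against 13.02, 13.28 and 13.55 at 0 h. None of these genes had a 24 h array within the range of the 0 h arrays, which the ranking of the falls required. Among genes not detected at 24 h, the lysozyme-like gene Lyzl4 was at least 18.3-fold lower, the sulfotransferase gene Chst7 at least 13.4-fold, the leucine zipper gene Tsc22d1 at least 12.9-fold, St6gal1, which adds sialic acid to glycans, at least 10.9-fold and the adhesion molecule Vcam1 at least 10.8-fold. Of 2 dimmer Vcam1 probes, both undetected at 24 h, 1 was called lower (adjusted p = 0.00173) and 1 did not pass (adjusted p = 0.645). Tmem176b fell by 4.52 ± 0.80, Igfbp4, which binds insulin-like growth factors, by 4.39 ± 0.30, and Atp2a3, a calcium pump of the endoplasmic reticulum, by 4.18 ± 0.33.

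Genes of arginine and nitric oxide metabolism formed a small group with large changes. Of 12 tested genes, 5 rose and 2 fell, with a median change of 0.12. Nos2, which encodes inducible nitric oxide synthase, read 11.06, 9.72 and 12.23 at 24 h, against 7.03, 6.42 and 8.16 at 0 h, a 14-fold rise (adjusted p = 3.2e-06). Its change was 3.99 at 2 h, 5.61 at 8 h and 3.80 at 24 h, and the 24 h level was lower than that at 8 h (change -1.80, adjusted p = 0.00467). Another Nos2 probe gave 0.85 (adjusted p = 0.0494). Arg1 averaged 5.05 at 2 h, 10.56 at 8 h and 12.84 at 24 h, and its other probe was at least 36.2-fold higher at 24 h. The transporter Slc7a2, which brings arginine into the cell, and Ass1, which rebuilds arginine from citrulline (10.54, 10.58 and 10.6 at 24 h, against 9.01, 8.87 and 8.59 at 0 h), rose with them. Arg2, the mitochondrial arginase, rose by 1.21 ± 0.20. Qdpr, which recycles tetrahydrobiopterin, fell by 1.53 ± 0.31 (-0.98 without animal 6). The number that fell was 1 without animal 2 or 3, when Gch1 lost its call.

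Gch1, the gene that the other genotype lacks, was called lower at 24 h on its brighter probe, but the arrays overlapped. It read 12.32, 12.51 and 13.88 at 24 h, against 13.95, 13.86 and 13.8 at 0 h, a change of -0.97 ± 0.30 (adjusted p = 0.0153). Animals 2 and 3 were lower at 24 h and animal 6 was not. The call was lost without animal 2 (change -0.63, adjusted p = 0.22) and without animal 3 (-0.78, adjusted p = 0.165), and the change was -1.49 without animal 6. A dimmer Gch1 probe did not pass (-0.31, adjusted p = 0.278). By RT-PCR, the study instead reported more Gch1 transcript in stimulated than in unstimulated wild-type cells. The study also reported more GTP cyclohydrolase protein after the stimulus. The reason for this disagreement with the arrays was not tested. In Gch1fl/flTie2cre cells Gch1 averaged 11.04 ± 0.61 at 24 h and 11.31 ± 0.10 at 0 h, against 12.90 ± 0.85 and 13.87 ± 0.08 in wild-type cells (SD, n = 3 each). Whether these probes lie within the deleted exons is not given in the sources used here. As3mt, an arsenic methyltransferase that the study also followed, did not pass (-0.29 ± 0.22, adjusted p = 0.316).

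Cytokine genes changed in both directions at 24 h. Of 26 tested inflammatory and regulatory cytokines, 5 rose and 5 fell, near the shares over all genes (17.6% higher and 15.1% lower). The median change was 0.07, while it was 1.38 at 2 h and 1.34 at 8 h. Il1a, an alarm cytokine, read 12.93, 12.23 and 11.84 at 24 h, against 10.14, 9.54 and 8.27 at 0 h, a rise of 3.02 ± 0.45. Il1rn, its natural antagonist, rose by 1.78 ± 0.25, and Inhba, the activin A subunit, was at least 3.44-fold higher. Lymphotoxin alpha (Lta), detected on 2 of the 24 h arrays and on no 0 h array, was higher (adjusted p = 0.0117), a call lost without animal 3 (adjusted p = 0.105), and Vegfa rose by 0.99, a call lost without animal 6 (0.37, adjusted p = 0.402). Tnf, a central early cytokine, read 11.7, 11.92 and 12.2 at 24 h, against 14.32, 14.43 and 14.21 at 0 h, a 5.20-fold fall. The 0 h level of Tnf was thus already high on each array, and it rose by a further 0.95 at 2 h before it fell below that level at 8 h (-0.91). The anti-inflammatory cytokine Il10 (7.1, 5.91 and 8.31 at 24 h, against 8.77, 8.4 and 9.67 at 0 h) and the growth factor Csf1 (-2.91 ± 0.31) were also lower at 24 h, and Tgfb1 fell by 1.43. Csf2, another growth factor, read 5.2, 4.87 and 4.87 at 24 h, against 6.25, 6.91 and 6.37 at 0 h, and was called lower although it was detected on only 1 of the 6 arrays. Il6, chosen after its values were seen, read 9.4, 8.36 and 9.76 at 24 h, against 9.09, 9.06 and 9.2 at 0 h, and did not pass (0.06, adjusted p = 0.908), after changes of 4.09 at 2 h and 3.65 at 8 h.

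Chemokines divided into genes that stayed high and genes that had dropped below the 0 h level. Of 20 tested, 5 rose and 9 fell, with a median change of -0.91. Besides Cxcl9, the monocyte attractant Ccl8 read 10.55, 10.12 and 13.42 at 24 h, against 8.9, 8.39 and 8.95 at 0 h. The groups did not overlap, but animal 6 was far higher than the others, and the change of 2.61 ± 0.62 was 1.69 without it. Ccl5, which attracts T cells and monocytes, rose by 1.12 ± 0.22 (0.68 without animal 6). Ccl2, the main monocyte attractant, rose by 2.10 ± 0.56, a call lost without animal 2 (1.73, adjusted p = 0.0792), and the scavenger chemokine Cxcl16 rose by 0.85. The neutrophil attractants Cxcl1 and Cxcl2 fell. Cxcl1 read 11.61, 11.42 and 12.42 at 24 h, against 13.92, 14.36 and 14.73 at 0 h, a 5.74-fold fall, and Cxcl2 fell by 2.09. Ccl3 (-2.37 ± 0.30), Ccl6 (-3.48 ± 0.50), Ccl9 (-1.20) and Cx3cl1 (at least 2.23-fold lower) were also lower on every 24 h array than on any 0 h array. Cxcl10, a ligand of the same receptor as Cxcl9, fell by 1.46, with 12.95, 12.81 and 12.94 at 24 h against 14.29, 14.13 and 14.66 at 0 h. Ccl4 fell by 1.25, a call lost without animal 3 (-1.22, adjusted p = 0.0522) or animal 6 (-0.70, adjusted p = 0.0982), and Ccl24, detected on 2 of the 0 h arrays and on no 24 h array, was lower (adjusted p = 0.0391), a call lost without animal 2 (adjusted p = 0.304) or animal 3 (adjusted p = 0.261).

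Receptors for chemoattractants changed in both directions, 3 up and 3 down of 8 tested. Ltb4r1, the leukotriene B4 receptor, read 9.12, 8.06 and 9.45 at 24 h, against 6.46, 6.63 and 7.05 at 0 h. Fpr2, a formyl peptide receptor, rose by 0.83 ± 0.18. C5ar1, the receptor for complement C5a, read 9.24, 8.95 and 7.53 at 24 h, against 11.54, 11.31 and 11.4 at 0 h, a 7.19-fold fall, and the chemerin receptor Ccrl2 fell by 1.52 ± 0.23. The rise of Cxcr4 (1.27 ± 0.45) came from animals 2 and 3, whereas animal 6 changed by -0.06. It was lost without animal 2 (1.03, adjusted p = 0.207) or animal 3 (0.85, adjusted p = 0.292), was 1.94 without animal 6, and did not pass when the animals were not modelled as a block. The fall of Cx3cr1 (-1.55 ± 0.56) was lost without animal 6 (-0.54, adjusted p = 0.426).

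Set against 8 h, 1471 genes (16.6%) were higher and 1104 (12.4%) were lower at 24 h in the same wild-type animals. Among the 1562 genes higher at 24 h than at 0 h, 667 were also higher than at 8 h, 94 had come nearer to the 0 h level and 801 did not pass between 24 h and 8 h. Among the 1343 lower genes these numbers were 442, 49 and 852. Both comparisons used the same 24 h arrays, which favours changes in the same direction, so these overlaps are a description and not a result. Some genes crossed the 0 h level. Edn1, which encodes the vasoconstrictor endothelin 1, changed by 3.76 at 2 h and by 0.81 at 8 h, and at 24 h read 9.26, 6.06 and 6.82, against 11.75, 11.16 and 10.56 at 0 h, a change of -3.77 ± 0.59. Hdc, the enzyme that makes histamine, changed by 2.06 at 2 h, 3.60 at 8 h and -2.08 at 24 h, and the vascular endothelial growth factor receptor Flt1 by -0.43 and 3.18 before it was at least 1.65-fold lower and undetected at 24 h. Il19, an IL-10 family cytokine, averaged 10.42 at 2 h and 11.95 at 8 h, but at 24 h was not detected on any array (5.29, 5.45 and 5.9), nor was it at 0 h (5.21, 5.5 and 5.17). Ptx3, a soluble pattern receptor, took a like course, with means of 8.82 at 2 h and 9.34 at 8 h and no detected array at 24 h or 0 h.

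Others stood well above their 8 h level at 24 h. Tsc22d3, a glucocorticoid-induced leucine zipper protein, changed by -1.29 at 2 h and -1.69 at 8 h. At 24 h it read 10.95, 10.99 and 11.89, against 9.32, 9.55 and 9.4 at 0 h, a rise of 1.85 ± 0.30. Gprc5b, an orphan receptor, was undetected at 0 h and at least 6.67-fold higher at 24 h, and its mean level was 9.17 at 24 h and 5.50 at 8 h. Nicn1 and Zbtb20, 3.43 and 3.30 above their 8 h levels, rose by 1.39 and 0.87 over 0 h, calls that were lost without animal 3 (1.10, adjusted p = 0.126, and 0.61, adjusted p = 0.0842). Plxdc1 changed by -4.19 at 8 h and Tbc1d8 by -3.75, and neither passed at 24 h against 0 h (-0.48, adjusted p = 0.107, and -0.52, adjusted p = 0.0998).

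**Figure D2:**
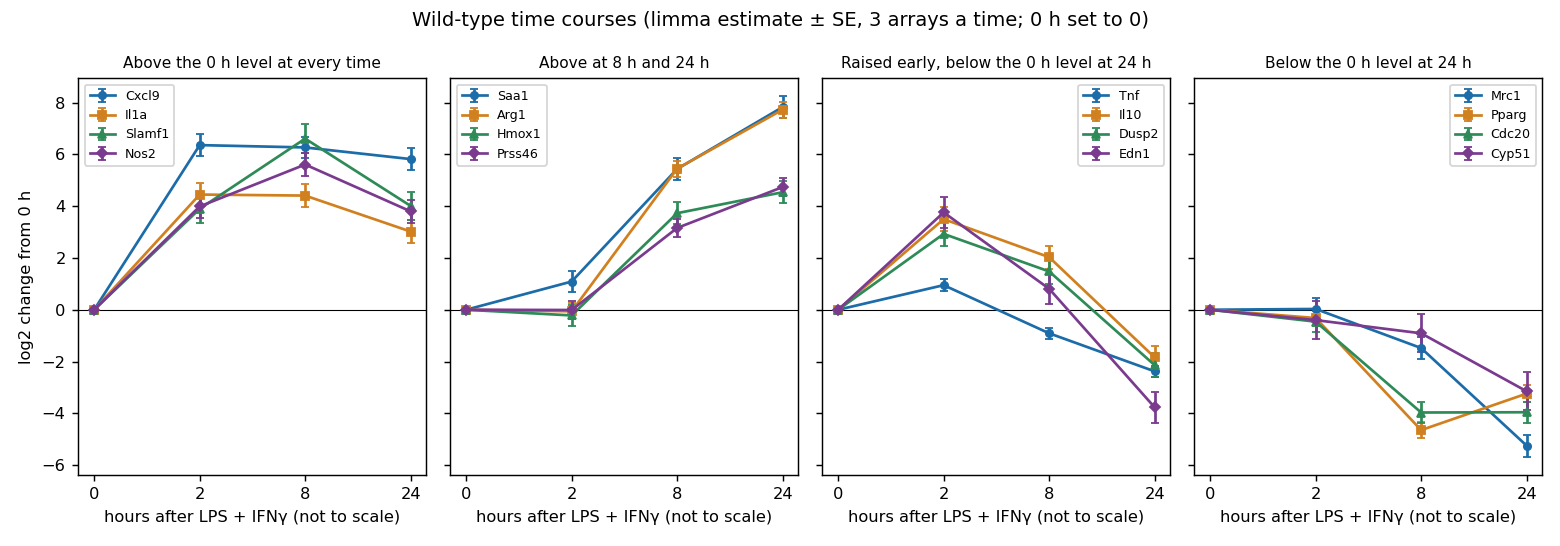
Change from 0 h on the log2 scale (limma estimate ± SE, n = 3 arrays per time) at 0, 2, 8 and 24 h in wild-type cells for 16 genes, with times evenly spaced and not to scale. Cxcl9, Il1a, Slamf1 and Nos2 were higher at 2 h and at 24 h, Saa1, Arg1, Hmox1 and Prss46 had their highest values at 24 h, Tnf, Il10, Dusp2 and Edn1 ended below the 0 h level, and Mrc1, Pparg, Cdc20 and Cyp51 were lower at 24 h.

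Interferon-induced genes are described by class. Interferon-inducible GTPases, which attack the vacuoles of intracellular pathogens, had median changes of 1.56 at 2 h, 1.00 at 8 h and -0.07 at 24 h. At 24 h, 1 of the 13 tested fell, the other 12 did not pass, and 10 were lower than at 8 h. The gene that fell was Gm12250, with 10.9, 10.46 and 11.06 at 24 h, against 12.03, 11.85 and 11.54 at 0 h. Its change of -1.0 ± 0.24 lost the call without animal 3 (-0.81, adjusted p = 0.0704), and the count of GTPases lower at 24 h was 2 without animal 2 and 4 without animal 6. Iigp1, chosen after its values were seen, was detected on 2 of the 24 h arrays and on no 0 h array, with 6.35, 5.39 and 9.69 at 24 h, against 5.65, 5.9 and 5.33 at 0 h, and did not pass (1.51, adjusted p = 0.14). Gbp and related GTPase genes have close copies, which the probes may share.

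Of 31 tested antiviral genes, 11 rose and 3 fell, and the median change was 0.43, after 0.51 at 2 h and 1.09 at 8 h. Irf7, a transcription factor of the type I interferon loop, read 12.33, 12.15 and 12.68 at 24 h, against 9.67, 9.43 and 9.67 at 0 h, a 6.94-fold rise. Isg20, an exonuclease that degrades viral RNA, rose by 2.28 ± 0.43. The 2′-5′-oligoadenylate synthetase gene Oas3 rose by 1.95 ± 0.29, Oas1g by 0.97 and the related Oasl2 by 0.85, whereas Oasl1 rose by 1.18 ± 0.34 only with animal 6 included (0.62, adjusted p = 0.214, without it). Samhd1, which depletes deoxynucleotides, rose by 0.75. The genes that fell were the nucleotide kinase Cmpk2 (-0.99 ± 0.20), the antibody receptor Trim21 (-0.97 ± 0.18) and Parp9 (-1.06 ± 0.34), and the call on Parp9 was lost without animal 2 (-0.94, adjusted p = 0.117) or animal 3 (-0.95, adjusted p = 0.141). Of the 31 genes, 19 were lower at 24 h than at 8 h.

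Promoters, taken from RefSeq as the 250 bases before and 50 after each start (build GRCm38.p6), were found for 7299 of the tested genes. They were searched on both strands for an ISRE-like motif (GAAANNGAA) and an NF-κB-like motif (GGGNNTTCC), letters like those bound by interferon regulatory factors and NF-κB. The ISRE-like motif was found in 9 of 10 interferon-inducible GTPases, in 14 of 24 antiviral genes and in 7.59% of all promoters. Among all genes called at 24 h the shares lay near those of all promoters: the ISRE-like motif in 7.70% of higher and 7.97% of lower genes, and the NF-κB-like motif in 7.15% and 9.94%, against 7.59% of all. Of the NF-κB subunits and feedback genes, 6 of 21 held the NF-κB-like motif. Stretches of 2 promoters are shown because they hold repeated motifs in genes with opposite results at 24 h, Cxcl9 (chr5:92328083-92328239, minus strand), which was 56.5-fold higher, and Gm12250 (chr11:58183723-58183836, plus strand), the GTPase that fell. Capitals mark the NF-κB-like matches of Cxcl9, which begin 130 and 42 bases before the start. They also mark the ISRE-like matches of Gm12250, on the other strand, which begin 90 and 45 bases before the start. Cxcl9 also held an ISRE-like match 175 bases before the start, outside the stretch. The GAS motif (TTCNNNGAA), also searched, was found in 6 of 10 interferon-inducible GTPases and 6.82% of all promoters. Gm12250 held it 61 bases before the start, left here in lower case. A match says only that the letters are there.
Cxcl9: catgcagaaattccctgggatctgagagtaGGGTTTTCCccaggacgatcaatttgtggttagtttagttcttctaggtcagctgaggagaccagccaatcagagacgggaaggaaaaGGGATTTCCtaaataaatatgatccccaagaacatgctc
Gm12250: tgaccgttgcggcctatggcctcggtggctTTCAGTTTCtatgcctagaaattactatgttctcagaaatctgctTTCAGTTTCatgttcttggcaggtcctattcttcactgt

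Genes of antigen presentation are described by class. Of 19 tested genes of MHC class I loading and the immunoproteasome, 7 rose and 1 fell, with a median change of 0.32. The class Ib genes H2-Q7 (13.27, 13.17 and 13.56 at 24 h, against 12.26, 12 and 11.15 at 0 h) and H2-T23 (15.05, 15.04 and 15.1 at 24 h, against 13.94, 14 and 13.36 at 0 h) rose in every animal. H2-M3 rose by 0.94 (0.70, adjusted p = 0.0867, without animal 3) and Tapbp, which loads peptide onto class I molecules, by 0.90 (0.84, adjusted p = 0.143, without animal 3 and 0.78, adjusted p = 0.0886, without animal 6), while another Tapbp probe did not pass (-0.37, adjusted p = 0.399). Psme2, a proteasome activator subunit, was the gene that fell, by 0.71 (-0.58, adjusted p = 0.0778, without animal 2 and -0.55, adjusted p = 0.141, without animal 3). The count of class I genes higher at 24 h was 4 without animal 3 and 3 without animal 6. H2 genes are near-identical copies, and a probe may read several of them.

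Of 13 class II genes, 3 rose and 2 fell, and the median change was -1.18 in animal 2, -0.30 in animal 3 and 0.79 in animal 6. Ciita, the master regulator of class II genes, was not detected on any array at 24 h (5.29, 5.86 and 5.93), against 8.46, 8.28 and 5.86 at 0 h, where animal 6 was also undetected. Its call (adjusted p = 0.0117) was lost without animal 2 (adjusted p = 0.205) or animal 3 (adjusted p = 0.112). H2-Eb1, chosen after its values were seen, read 9.0, 9.62 and 9.92 at 24 h, against 12.07, 11.49 and 9.13 at 0 h and did not pass (-1.38, adjusted p = 0.0742). At 0 h, animal 6 was the lowest of the animals for both genes. H2-DMa fell by 1.24 ± 0.37, a call lost without animal 2 (-0.74, adjusted p = 0.211) or animal 3 (-1.23, adjusted p = 0.0869). The protease Ctss, which trims the invariant chain, rose by 0.80 ± 0.19 in every animal. Marchf1, which tags class II molecules for removal, rose by 0.89 and H2-Ob, detected on 1 of the 24 h arrays and on no 0 h array, was called higher, and both calls were lost whichever animal was left out (adjusted p from 0.0511 to 0.165) and without the block. The count of class II genes that rose was 1 without each animal, and of those that fell 0 without animal 2 or 3 and 4 without animal 6.

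**Figure D3:**
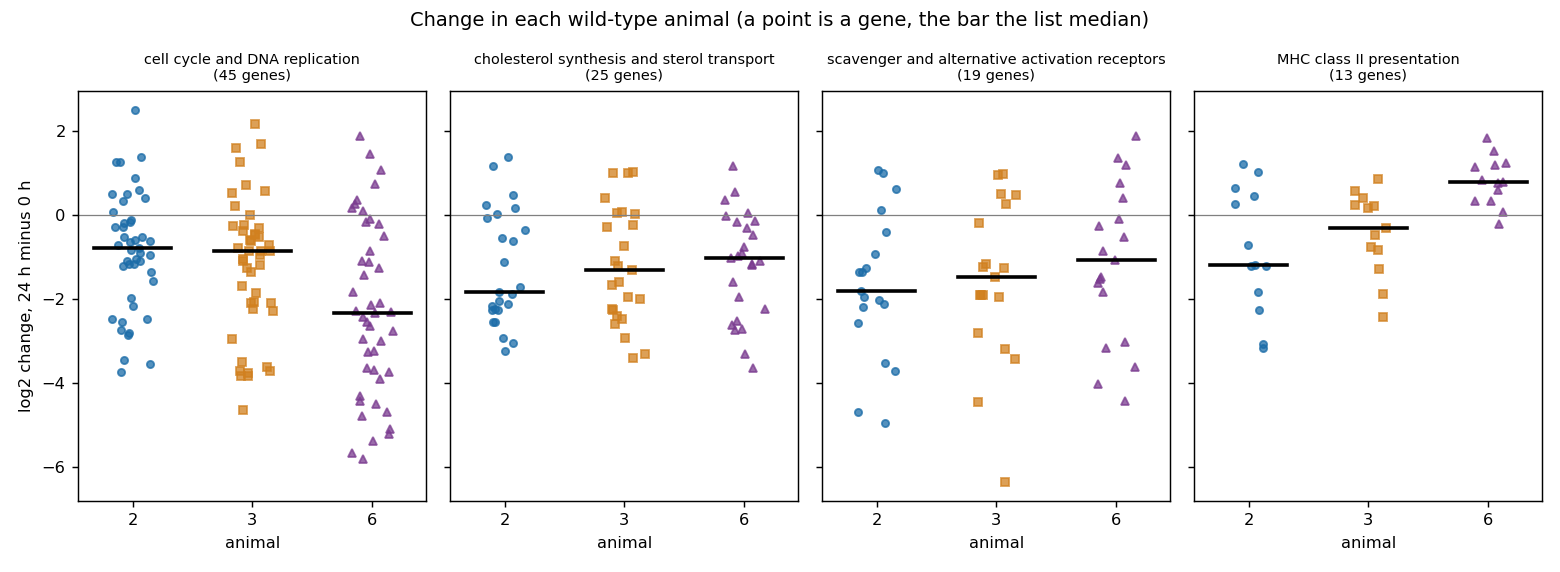
Change per gene, 24 h minus 0 h on the log2 scale, in animals 2, 3 and 6 for cell cycle (45 genes), cholesterol (25), scavenger receptor (19) and MHC class II (13) genes; the bar is the median. Cell cycle genes had their lowest median in animal 6 (-2.32), and class II genes had a median of -1.18 in animal 2 and 0.79 in animal 6.

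Of 19 tested receptors and ligands that help or restrain T cells, 5 rose, 4 fell and 10 did not pass, with a median change of 0.06. Slamf1 read 10.47, 10.63 and 11.97 at 24 h, against 7.78, 6.85 and 6.42 at 0 h. Cd274, which encodes the inhibitory ligand PD-L1, rose by 1.37 ± 0.16 and Slamf7 by 1.51 ± 0.33. Another Slamf7 probe changed by 0.46 (adjusted p = 0.0435), under the 1.5-fold threshold. Cd83, a marker of activated dendritic cells and macrophages, read 9.68, 9.74 and 9.78 at 24 h, against 12.73, 12.78 and 12.76 at 0 h, and its arrays within a group differed by no more than 0.1. The costimulatory receptor Cd40 fell by 1.09 ± 0.20, after changes of 1.29 at 2 h and 1.02 at 8 h. Other Cd40 probes fell by 1.43, 1.07 and 1.39 (adjusted p = 0.00197, 0.00828 and 7.8e-04), while a further dimmer probe did not pass (0.53, adjusted p = 0.204). Cd86, a costimulatory ligand, fell by 1.26, which was lost without animal 2 (-1.03, adjusted p = 0.24) or animal 3 (-0.76, adjusted p = 0.334), was -2.0 without animal 6 and did not pass without the block, nor did its 2 other probes pass (-1.16, adjusted p = 0.0761, and 0.23, adjusted p = 0.765). Icosl fell by 1.00 (-0.73, adjusted p = 0.102, without animal 2 and -0.80, adjusted p = 0.126, without animal 3). Pilrb1 rose by 2.17 (1.71, adjusted p = 0.0941, without animal 2 and 1.83, adjusted p = 0.097, without animal 3), and Pdcd1lg2, which encodes PD-L2 and was detected on 1 of the 24 h arrays and on no 0 h array, was called higher (adjusted p = 0.00933, with 0.0793 without animal 2 and 0.0998 without animal 6). The counts were 3 up without animal 2 and 2 down without animal 2 or 3.

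Of 18 tested Toll-like receptors and adaptors, which sense LPS and other microbial products, 2 rose, 5 fell and 11 did not pass, with a median change of -0.38. Tlr2, the receptor for bacterial lipopeptides, read 12.6, 11.8 and 10.3 at 24 h, against 14.46, 14.35 and 14.76 at 0 h, a 7.78-fold fall that was seen in every animal. Its partner Tlr6 fell by 1.02 ± 0.17 and the adaptor Myd88 by 0.82. Tlr8, an endosomal RNA sensor, fell by 1.85 (-1.12, adjusted p = 0.123, without animal 6) and Irak2 by 1.12 (-0.88, adjusted p = 0.0661, without animal 2 and -0.84, adjusted p = 0.0824, without animal 3). Ticam2 rose by 0.66 (0.64, adjusted p = 0.0772, without animal 3), and Traf6 by 0.61, a call lost without each of the animals (0.78, adjusted p = 0.0584, 0.79, adjusted p = 0.0696, and 0.25, adjusted p = 0.442) and without the block. The count of genes that rose was 1 without animal 2 or 6 and 0 without animal 3. Tlr4 itself did not pass (-0.13, adjusted p = 0.72).

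NF-κB subunits and feedback genes had a median change of 0.97 at 2 h, 0.32 at 8 h and 0.00 at 24 h, when 4 of 23 tested rose, 8 fell and 12 were lower than at 8 h. The subunit genes Rel (6.96, 5.96 and 7.37 at 24 h, against 8.78, 8.66 and 8.0 at 0 h) and Relb (8.86, 8.51 and 8.7 at 24 h, against 10.35, 10.17 and 9.76 at 0 h) fell. The inhibitor Nfkbib fell by 1.52 ± 0.20, and the phosphatase Dusp2 was 4.4-fold lower, after a rise of 2.93 at 2 h. Dusp1, which switches off MAP kinases, rose by 1.21 ± 0.22 and was raised by 1.30 at 2 h and 1.38 at 8 h. Socs3, an inhibitor of cytokine receptor signalling, rose by 0.68 ± 0.16. Tnip2 rose by 1.00 (0.65, adjusted p = 0.0697, without animal 6) and the RNase Zc3h12a by 0.60 (0.44, adjusted p = 0.198, without animal 3 and 0.57, adjusted p = 0.111, without animal 6), so that the number that rose was 2 without animal 6.

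Scavenger receptors and genes of alternative activation were mostly lower. Of 19 tested, 12 fell and 2 rose, with a median change of -1.35 and medians of -1.80, -1.46 and -1.06 in animals 2, 3 and 6. At 2 h their median was -0.03 and at 8 h -0.91. Besides Mrc1 and Clec10a, Gas6, a bridging ligand in the uptake of dying cells, read 9.02, 9.44 and 9.33 at 24 h, against 12.72, 12.86 and 12.95 at 0 h, a 12-fold fall. Pparg, a lipid-sensing nuclear receptor of alternatively activated macrophages, read 6.33, 6.66 and 6.79 at 24 h, against 9.85, 9.85 and 9.81 at 0 h. On this probe the change was -4.65 at 8 h and -3.24 at 24 h. The 24 h readings lay near the lowest detected signal of those arrays (6.3, 6.53 and 6.78), so these sizes are uncertain. A dimmer Pparg probe, undetected at 24 h, showed no return, with -2.02 at 8 h and -2.31 at 24 h (24 h against 8 h, adjusted p = 0.582). Trem2, a lipid receptor, read 12.19, 12.19 and 12.28 at 24 h, against 14.38, 14.08 and 14.1 at 0 h, and Clec7a, the receptor for fungal glucans, fell by 2.33 and the fatty acid receptor Cd36 by 1.15, while Colec12 was undetected at 24 h and at least 1.49-fold lower. In each of these genes the groups did not overlap. The interleukin 4 receptor gene Il4ra rose by 1.13 ± 0.32, and the scavenger receptor Msr1 by 0.80 (0.70, adjusted p = 0.101, without animal 2 and 0.71, adjusted p = 0.0983, without animal 3). The count of those that rose was 1 without animal 2 or 3.

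Many cell cycle genes fell, with the lowest median in animal 6. Of 45 tested, 20 fell and 3 rose, with a median change of -1.44, and medians of -0.78, -0.86 and -2.32 in animals 2, 3 and 6. Without animal 6 the number that fell was 11. Stmn1, which destabilizes microtubules, read 6.79, 6.21 and 6.06 at 24 h, against 10.24, 10.85 and 11.89 at 0 h. Birc5, which encodes the mitotic protein survivin, was at least 12.4-fold lower, Cdc20, an activator of the anaphase-promoting complex, at least 9.40-fold and thymidine kinase (Tk1) at least 5.80-fold. Mitotic genes outside the naming rule, Top2a (at least 4.46-fold lower), Ube2c (4.37-fold), Ccna2 (4.17-fold) and Plk1 (5.15-fold), were not detected on any 24 h array and were detected on every 0 h array. Mcm6, a replicative helicase subunit, showed how far animal 6 could lie from the others, with 9.29, 9.09 and 7.27 at 24 h, against 9.91, 9.81 and 12.49 at 0 h. Its change of -2.18 ± 0.79 became -0.67 (adjusted p = 0.544) without animal 6. Animal 6 was the highest of the animals at 0 h and the lowest at 24 h. Ctps, which makes CTP, fell by 2.11, and its change was -0.80 (adjusted p = 0.376) without animal 6. The median change was 0.01 at 2 h and -1.50 at 8 h.

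The cell cycle genes that rose were regulators of entry and licensing. Cdt1, which loads the replicative helicase, rose by 1.47 ± 0.35 and Ccnd3, a D-type cyclin, by 1.38 ± 0.28. E2f1 read 11.26, 11.18 and 11.16 at 24 h, against 8.74, 9.0 and 10.4 at 0 h, and its rise of 1.82 was lost without animal 2 (1.47, adjusted p = 0.0847) or animal 3 (1.64, adjusted p = 0.0675). The histone H4 genes H4c9, H4c17, H4c18 and H4c11 were also higher at 24 h, by 1.94 to 2.67, and this came mainly from animal 6. H4c9 read 9.32, 9.29 and 13.36 at 24 h, against 8.32, 8.62 and 7.9 at 0 h, and without animal 6 none of the 4 passed (changes 0.84, 1.17, 1.23 and 0.74, adjusted p from 0.169 to 0.334). These histone genes are near-identical copies, so their probes may read the same transcripts. The CCAAT box (CCAAT), bound by NF-Y, was found in 23 of 35 cell cycle promoters and in 38.7% of all promoters, and the CHR motif (TTTGAA), known from genes of the late cell cycle, in 12 of 35 and in 12.2% of all. In higher and lower genes the CHR was found in 11.6% and 14.4%. It was not particular to cell cycle genes, since 5 of 10 promoters of interferon-inducible GTPases also held it. The stretch of the Cdc20 promoter with its CHR, 18 bases before the start (chr4:118437344-118437391, minus strand, CHR in capitals), is shown as the example of a gene that fell below detection in every animal.
Cdc20: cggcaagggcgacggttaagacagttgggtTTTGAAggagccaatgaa

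Of 25 tested genes of cholesterol synthesis and sterol transport, 14 fell, 1 rose and 10 did not pass, with a median change of -1.33. The medians of animals 2, 3 and 6 were -1.82, -1.31 and -1.01, and the number that fell was 9 without animal 3. Hsd17b7 read 9.9, 9.83 and 7.48 at 24 h, against 12.95, 13.24 and 11.11 at 0 h, a 10.3-fold fall. Cyp51, the sterol demethylase, read 9.45, 9.68 and 7.19 at 24 h, against 12.68, 12.6 and 10.49 at 0 h, an 8.88-fold fall. Animal 6 was about as far below the others at both times, so that the changes of the animals (-3.23, -2.92 and -3.30 for Cyp51) were alike although the levels were not. Fdps and Idi1, enzymes of the isoprenoid steps, fell by 2.70 ± 0.49 and 2.62 ± 0.54. Of genes outside the naming rule, squalene epoxidase (Sqle) fell by 2.37, the sterol carrier Stard4 by 2.39, the sterol sensor Insig1 by 1.45 and Srebf2, which encodes the transcription factor that drives the pathway, by 1.86. The median was -0.44 at 2 h and -0.66 at 8 h, and 7 of the 25 were lower and 3 higher at 24 h than at 8 h. Cyp51 had changed by -0.91 at 8 h (adjusted p = 0.361). Npc2, which carries cholesterol out of lysosomes, was the gene that rose, with 15.4, 15.24 and 15.3 at 24 h, against 14.22, 14.25 and 14.14 at 0 h. The SRE-like motif TCACNCCAC, letters like those bound by the Srebf2 product, was found in 0 of 20 promoters of the list and in 0.904% of all. The CCAAT box was found in 15 of the 20, against 38.7% of all, and is shown in capitals for Cyp51, where it begins 29 bases before the start (chr5:4104698-4104756, minus strand).
Cyp51: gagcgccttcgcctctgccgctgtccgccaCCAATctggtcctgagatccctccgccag

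Energy metabolism changed at a few of its genes. Of 29 tested genes of glycolysis and the hypoxia response, 9 rose and 3 fell, with a median change of 0.46, after -0.35 at 2 h and 0.91 at 8 h. Ankrd37, a target of hypoxia-inducible factor, read 11.29, 11.45 and 13.22 at 24 h, against 8.97, 8.72 and 9.73 at 0 h. The collagen prolyl hydroxylase P4ha1 rose by 1.40 ± 0.21 on 1 probe and did not pass on another (-0.21, adjusted p = 0.397), and Hif1a, the hypoxia-inducible factor itself, rose by 0.84 ± 0.19, after 2.18 at 8 h. The glycolytic enzyme Pgk1 rose by 0.82 (0.69, adjusted p = 0.0873, without animal 2 and 0.72, adjusted p = 0.106, without animal 3), and by 1.53 on another probe (adjusted p = 1.2e-04). The number of genes that rose was 3 without animal 2 and 4 without animal 3. Ndrg1 fell by 2.09 (-1.76, adjusted p = 0.0515, without animal 2 and -1.50, adjusted p = 0.0705, without animal 3), the pyruvate dehydrogenase kinase Pdk1 by 1.00 (-0.98, adjusted p = 0.0621, without animal 3 and -0.68, adjusted p = 0.111, without animal 6) and the hexose transporter Slc2a6 by 0.75 ± 0.17. With few members called, the number that fell was 1 without animal 3.

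Among 23 tested genes of the tricarboxylic acid cycle and itaconate synthesis, 2 rose and 6 fell, with a median change of -0.21. The 2 that rose were subunits of succinate dehydrogenase, Sdhd (11.76, 11.9 and 11.66 at 24 h, against 11.02, 11.12 and 10.91 at 0 h) and Sdhb (0.63 ± 0.15, 0.55, adjusted p = 0.0584, without animal 2, where only Sdhd was called higher). Suclg2, a succinyl-CoA ligase subunit, fell by 1.76 ± 0.29 (-1.13 without animal 6). Mdh1 fell by 1.03. Idh3a fell by 1.49 (-0.93, adjusted p = 0.062, without animal 6), fumarase (Fh1) by 1.12 (-0.58, adjusted p = 0.0666, without animal 6) and Idh2 by 1.39 (-1.76, adjusted p = 0.0854, without animal 3 and -0.51, adjusted p = 0.51, without animal 6, and not passing without the block), so that 3 fell without animal 6. Acod1, which makes itaconate and was chosen after its values were seen, read 15.4, 15.29 and 15.23 at 24 h, against 15.39, 15.35 and 15.17 at 0 h, close to the top of the scale at both times. Of 43 oxidative phosphorylation subunits, 2 rose and 4 fell, with a median change of -0.09. Both counts lay below the shares over all genes (17.6% higher and 15.1% lower). Ndufb7 (-1.40 ± 0.17) and Ndufs8 (-1.13 ± 0.16) of complex I fell in every animal, as did Uqcrc1 (-0.77 ± 0.14), while Cox4i1 (-0.72; -0.59, adjusted p = 0.0649, without animal 3), Cox5a (0.74; 0.62, adjusted p = 0.0639, without animal 3) and Cox6a1 (0.62; 0.54, adjusted p = 0.0782, without animal 2 and 0.49, adjusted p = 0.0974, without animal 3) rested on the animals named, and the number that rose was 1 without animal 2 and 0 without animal 3.

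Targets of NRF2, the factor that answers oxidative stress, did not move together in wild-type cells. Of 30 tested, 3 rose and 5 fell, with a median change of -0.08. Hmox1 had the largest rise of the list. The epoxide hydrolase Ephx1 read 6.06, 6.86 and 6.84 at 24 h, against 10.42, 10.19 and 9.67 at 0 h, and Nfe2l2, which encodes NRF2, read 10.93, 10.68 and 11.85 at 24 h, against 13.03, 12.78 and 12.3 at 0 h, so that all arrays of both genes were lower at 24 h. Transketolase (Tkt) fell by 1.25 ± 0.26. Malic enzyme (Me1) rose by 0.86 (0.75, adjusted p = 0.0501, without animal 3) and Mafg by 0.69 (0.52, adjusted p = 0.0977, without animal 6, and another probe at -0.08, adjusted p = 0.718), and Maff, undetected at 24 h, was at least 1.76-fold lower (adjusted p = 0.00535, with 0.0985 without animal 2 and 0.131 without animal 3). The number that fell was 3 without animal 2 or 3 and 8 without animal 6. Of 16 tested iron genes, 2 rose, Lcn2 and Hmox1, and 2 fell, the transferrin receptor Tfrc (-1.85 ± 0.42, -1.20 without animal 6) and its partner Hfe (-1.16 ± 0.26). Of 13 genes of the NADPH oxidases and superoxide dismutases, 2 rose and 1 fell. Nox1 was not detected at 24 h and at least 3.24-fold lower (5.06, 5.0 and 4.89), against 8.57, 8.06 and 8.07 at 0 h. Cybb, the phagocyte oxidase subunit, rose by 0.82 (0.60, adjusted p = 0.0923, without animal 6), but another of its probes fell by 0.83 (adjusted p = 0.0261), so its direction is unsettled, and Rac2 rose by 0.86 (0.77, adjusted p = 0.112, without animal 3). The number that rose was 1 without animal 3 or 6, and 2 fell without animal 2 or 6.

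Acute phase and complement genes were among the highest. Of 19 tested, 9 rose and 4 fell, with a median change of 0.65. Besides Saa1, Lcn2 and Hp, complement factor B (Cfb) read 13.7, 13.49 and 13.17 at 24 h, against 10.62, 10.19 and 9.03 at 0 h, an 11.4-fold rise, Orm1, undetected at 0 h, was at least 4.54-fold higher and coagulation factor 10 (F10) rose by 1.91 (1.20 without animal 6). The 3 chains of C1q, which starts the classical complement pathway, fell: C1qa read 10.48, 10.48 and 10.13 at 24 h, against 12.52, 11.99 and 12.59 at 0 h, C1qc fell by 1.01 ± 0.19 and C1qb by 0.97 ± 0.16. Plaur, the urokinase receptor, fell by 0.90 (-0.66, adjusted p = 0.0845, without animal 2 and -0.76, adjusted p = 0.0588, without animal 3).

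Of 11 genes of prostaglandin and leukotriene synthesis, 2 rose and 4 fell. Ptger2, a receptor for prostaglandin E2, read 9.56, 9.28 and 9.05 at 24 h, against 7.17, 7.17 and 7.31 at 0 h, and its rise came late (0.03 at 2 h, 0.40 at 8 h and 2.08 at 24 h). Ptges, which makes prostaglandin E2, rose by 2.04 ± 0.53 (1.84, adjusted p = 0.0651, without animal 3), and the number that rose was 1 without animal 3. Hpgd, which breaks prostaglandins down, was at least 4.04-fold lower and Alox5, the first enzyme of leukotriene synthesis, at least 1.91-fold lower, and both were undetected on every 24 h array. Hpgds fell by 1.49 ± 0.25 and Ltc4s by 1.39 ± 0.27. Of 15 matrix metalloproteinases and inhibitors, Timp1 rose and 5 fell (3 without animal 2), among them Timp2 (9.07, 9.2 and 7.86 at 24 h, against 11.57, 11.36 and 11.23 at 0 h), the gelatinase Mmp9 (-2.32 ± 0.29), the collagenase Mmp13 (-1.52 ± 0.24, after 1.12 at 8 h) and the urokinase Plau (-1.16, with -1.04, adjusted p = 0.152, without animal 2 and -1.12, adjusted p = 0.167, without animal 3, and not passing without the block).

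Most measured genes of cytosolic ribosomal proteins were lower. Of 51 tested genes of cytosolic ribosomal proteins, 33 fell, the other 18 did not pass, and the median change was -0.86, or -0.63, -1.19 and -0.62 in animals 2, 3 and 6. The numbers without animals 2, 3 and 6 were 35, 31 and 32. Rpl10a read 14.08, 12.59 and 13.55 at 24 h, against 15.21, 15.15 and 15.19 at 0 h. Rpl7a fell by 1.56 ± 0.15 and Rps15 by 1.55 ± 0.20, and Rpl21, not detected at 24 h, was at least 1.82-fold lower. Ribosomal protein genes have many processed copies in the genome, so single members are uncertain. The median was -0.12 at 2 h and -0.47 at 8 h. Of 28 constitutive proteasome subunits, Psmd1 rose (0.66; 0.48, adjusted p = 0.0849, without animal 3) and 27 did not pass, while 2 rose without animal 2 or 6. The medians of the ribosomal and proteasome lists, -0.86 and 0.20, stood beside 0.04 over all genes.

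Stress, death and degradation genes gave single changes rather than group shifts. Of 22 tested genes of ATF4 and the unfolded protein response, 2 rose and 5 fell (3 without animal 3). Ddit3, which encodes the stress factor CHOP, read 11.06, 11.12 and 12.8 at 24 h, against 9.06, 9.47 and 8.53 at 0 h, and the sensor Ern1 rose by 1.19 ± 0.19. The serine synthesis enzymes Psat1 (7.78, 6.78 and 7.83 at 24 h, against 10.02, 10.0 and 10.43 at 0 h) and Phgdh (at least 2.58-fold lower) fell, as did Herpud1 (-1.33 ± 0.19) and the glutathione-degrading enzyme Chac1 (-2.0; -1.25, adjusted p = 0.0822, without animal 3). The number that rose was 4 without animal 3. Of 25 lysosomal genes, 3 rose and 4 fell (2 without animal 3), with a median change of 0.01. Neu1 rose by 0.91 ± 0.17, while Hexa and Man2b1 fell by 1.12 ± 0.21 and 1.01 ± 0.21. Of 16 inflammasome genes, 3 rose and 2 fell. Nlrp3, an inflammasome sensor, was at least 4.14-fold lower and not detected at 24 h (6.25, 5.15 and 5.26), against 8.73, 8.38 and 8.65 at 0 h, and the decoy receptor Il1r2 was at least 7.00-fold lower. Naip5, a flagellin sensor, rose by 1.49 ± 0.20, while a dimmer probe of it did not pass (0.35, adjusted p = 0.497). Of 11 BCL2 family genes, 3 fell, among them the survival genes Bcl2a1d and Bcl2a1b (-1.47 ± 0.16 and -1.37 ± 0.17), close copies whose probes may not be distinct.

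**Figure D4:**
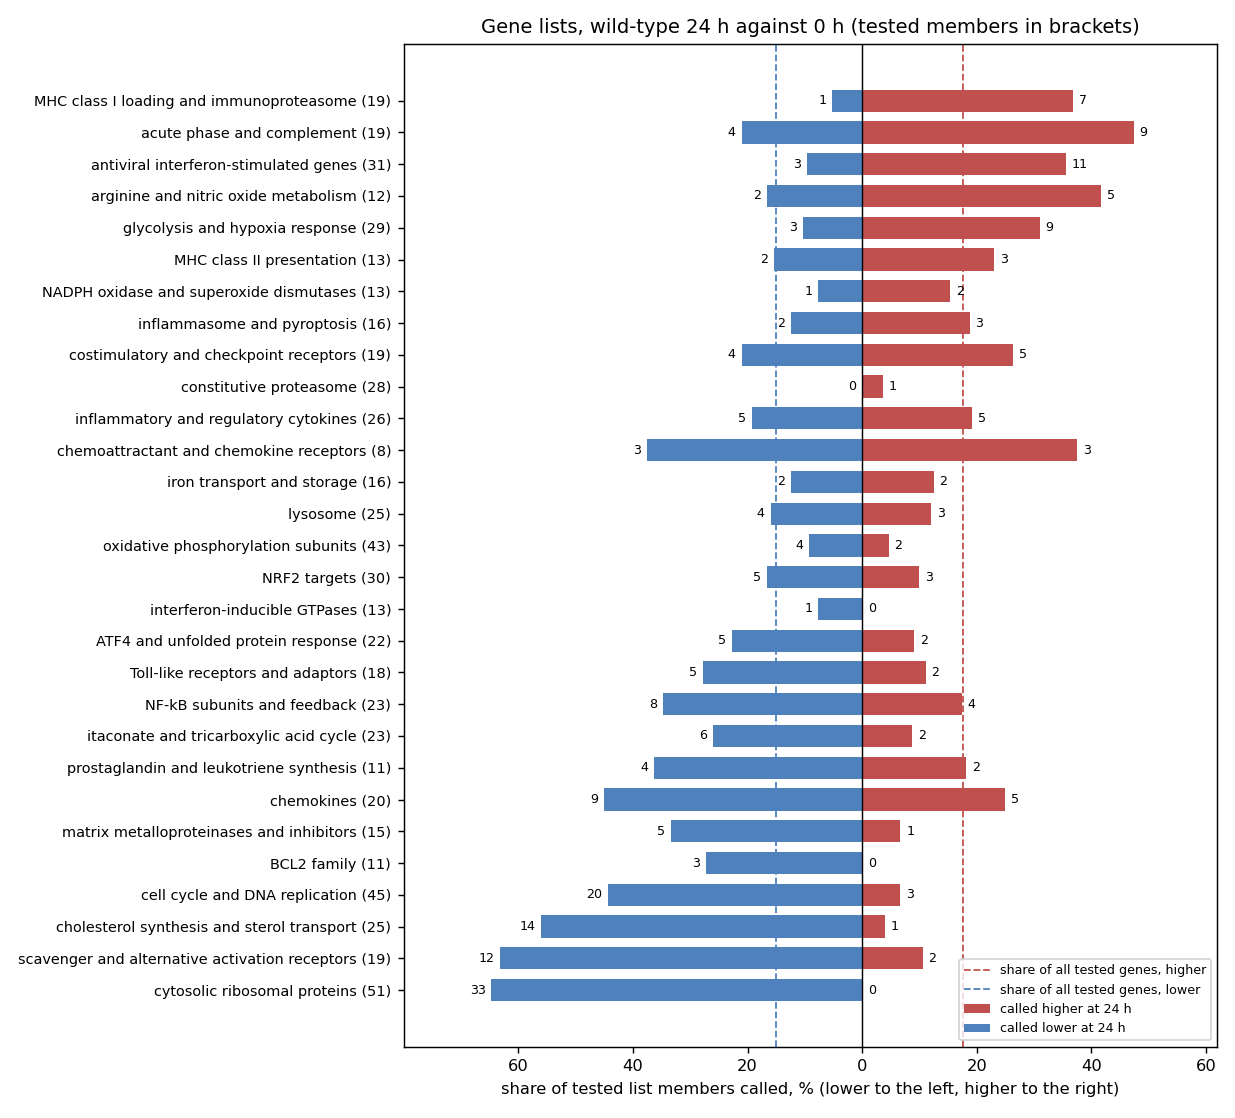
Share of the tested genes of each list that was called higher (right, red) or lower (left, blue) at 24 h than at 0 h in wild-type cells; dashed lines mark the shares over all 8875 genes (17.6% higher, 15.1% lower). Ribosomal proteins, scavenger receptors and cholesterol synthesis reached furthest to the left, and acute phase genes and arginine metabolism furthest to the right.

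Of 10 listed macrophage markers 8 were tested, and 1 rose, 1 fell and 6 did not pass. Their summed intensity was 131000, 131000 and 94400 at 24 h, against 135000, 129000 and 126000 at 0 h, and was thus lowest in animal 6 at 24 h. Adgre1, which encodes F4/80, read 15.19, 15.41 and 15.11 at 24 h, against 15.08, 14.92 and 14.96 at 0 h, Csf1r 13.55, 13.22 and 12.12 at 24 h, against 13.55, 13.36 and 13.29 at 0 h, and Itgam, which encodes CD11b, 9.57, 9.37 and 8.87 at 24 h, against 8.44, 8.23 and 9.63 at 0 h. Cd14, the LPS co-receptor, read 15.26, 14.86 and 12.98 at 24 h, against 15.31, 15.26 and 15.04 at 0 h, and did not pass (-0.84, adjusted p = 0.0659). Fcgr1, a high-affinity IgG receptor, rose by 1.42 (1.10, adjusted p = 0.0822, without animal 2 and 1.24, adjusted p = 0.0903, without animal 3), and the lineage factor Spi1 fell by 0.73 (-0.40, adjusted p = 0.237, without animal 2 and -0.66, adjusted p = 0.125, without animal 3, and -1.13 without animal 6). No marker of T and NK cells, B cells or mast cells and basophils passed the detection filter. Of 9 neutrophil markers 4 were tested. S100a8 rose by 2.89 ± 0.58 (14.85, 13.49 and 13.63 at 24 h, against 12.09, 10.99 and 10.21 at 0 h), whereas S100a9 read 8.3, 5.2 and 4.84 at 24 h, against 10.88, 9.15 and 4.94 at 0 h, and Ngp 5.39, 5.11 and 4.8 at 24 h, against 8.88, 6.97 and 5.06 at 0 h. The summed intensity of the 4 neutrophil markers ran from 11600 to 30000 at 24 h and from 1300 to 6940 at 0 h, and S100a8 made up most of it. S100a9 and Ngp were not detected in animal 6 at either time. Lcn2 and Hp, which rose, are also made by neutrophil precursors, and the part of such cells was not tested. Dcn, the 1 stromal marker tested of 6, was at least 2.78-fold higher at 24 h. Of 5 endothelial markers 2 were tested. Vwf fell by 0.89 (-0.77, adjusted p = 0.131, without animal 2 and -0.69, adjusted p = 0.129, without animal 3), and the other did not pass (0.21). The osteoclast markers Ctsk (1.09, adjusted p = 0.138) and Acp5 (-0.40, adjusted p = 0.349) did not pass. Their summed intensity was 1080, 1040 and 6450 at 24 h, against 679, 950 and 1430 at 0 h. Siglech, of dendritic cells, and Pf4, of megakaryocytes, did not pass (adjusted p = 0.214 and 0.171).

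The 24 h response was set against that of Gch1fl/flTie2cre cells by the difference of their changes, Gch1fl/flTie2cre minus wild-type, which passed for 1 of 8875 genes (0.0113%). That gene was Slc40a1, which encodes the iron exporter ferroportin. It changed by -4.24 in Gch1fl/flTie2cre cells and by -0.52 in wild-type cells, where it read 11.61, 12.27 and 11.9 at 24 h, against 12.1, 12.62 and 12.61 at 0 h and did not pass (adjusted p = 0.219). The difference was -3.72 ± 0.45 (adjusted p = 0.00133). This call was lost without wild-type animal 3 and without animal 4 of the other genotype, when 0 probes were called. Hmox1, which rose by 4.54 in wild-type cells, rose by 1.79 in Gch1fl/flTie2cre cells, and that difference did not pass (adjusted p = 0.161). For Nos2 the changes were 3.63 in Gch1fl/flTie2cre and 3.80 in wild-type cells, and Arg1 averaged 12.76 in Gch1fl/flTie2cre and 12.84 in wild-type cells at 24 h. With 3 animals per genotype, a difference that did not pass does not show that the genotypes responded alike.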

How the data were processed

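RNA of bone marrow-derived macrophages was hybridised to Illumina MouseWG-6 V2 BeadChips, 24 arrays in all, of which the 6 wild-type arrays at 24 h and 0 h are described here. The authors extracted probe intensity values with GenomeStudio V2010.1, without background correction or normalization, and deposited them with a detection p-value per probe and array. The authors also deposited log2 values normalized by variance stabilization with limma in R 2.14, which served as an alternative. Chip and scan identities are not given in the sources used here, and no deposited value column belonged to other samples (0 columns).

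Intensities were background-corrected, quantile normalized and log2 transformed with neqc (limma 3.58.1, R 4.3.3, offset 16). Probes with a detection p below 0.01 on at least 3 of 24 arrays were kept (16498 of 45281, of which 14050 had 1 gene, 8 had several and 2440 had none named). All 8 groups of 3 arrays were fitted in 1 limma model, with the animal as a random block (statmod 1.5.0, consensus correlation 0.1236), and the Benjamini-Hochberg adjustment ran over the 16498 probes. Probes at an adjusted p below 0.05 and over 1.5-fold were called, and a gene is its brightest tested probe. The animal numbers in the labels pair the arrays. Within wild-type cells, over all pairs of times, deviations from the group means correlated with a median r of 0.263 for arrays of 1 animal. The median was -0.0892 for arrays of different animals. Between the 0 h and 24 h arrays, r was only 0.0637, 0.0642 and 0.0162 within animals 2, 3 and 6. Between different animals it ran from -0.0846 to 0.024, so the pairing was weak for the comparison described here. The limma steps were tested on simulated data.

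The naming rule took Gch1, Nos2 and As3mt, and the 15 largest rises and 15 largest falls with no overlap of arrays. It took up to 4 called genes per direction in each gene list. Among genes detected at 1 time only, it took the 8 with the largest limits in each direction. It also took up to 10 genes called in the difference of the genotypes and the 6 largest changes in each direction against 8 h. Last came the 8 genes with the widest gap between an animal and the others. Not all genes of the rule are described in the text, for example Pcp4l1, Pclaf, Anln, Apol7c, Tesk1 and Fabp3. Other named genes were chosen after their values were seen. The arrays, gene lists and tests were chosen with earlier results of these data known. Alternatives were the deposited values, no background correction, an offset of 50, cyclic loess, other probe filters, array weights, other animal blocks, the 6 arrays alone, a 2-fold threshold and leaving out each animal. The number of arrays limits the precision.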

Additional observations from a re-analysis of the deposited data

Results flagged for a closer look

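The 24 h response of 2 probes differed between the genotypes, by a limma test of the difference itself. The probe of Slc40a1, which encodes the iron exporter ferroportin, changed by -4.24 in Gch1fl/flTie2cre cells and by -0.52 in wild-type cells, a difference of -3.72 ± 0.45 on the log2 scale (SE, adjusted p = 0.00133). A probe with no gene named here changed by -0.33 in Gch1fl/flTie2cre cells and by 1.08 in wild-type cells, a difference of -1.41 ± 0.23 (adjusted p = 0.0434). Both calls were lost without wild-type animal 3 and without animal 4 of the other genotype. At an unadjusted p below 0.05 the difference passed for 955 probes. Single arrays within a group were not tested as outliers, since each group held 3.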

How the results depend on the processing

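Of 211 genes chosen by the naming rule, 131 kept their direction and their call under every alternative, 76 lost the call under at least 1, 4 gained a call under at least 1, and none changed sign. At 24 h against 0 h, 5331 probes were called (2729 higher, 2602 lower, and 7428 at an unadjusted p below 0.05). The totals were 2832 with the 6 arrays alone and the animal as a fixed block (1378 higher, 1454 lower) and 3055 over 2-fold (1418 higher, 1637 lower). The number higher was 1746 with the deposited values and 1770 without background correction. Leaving out an animal gave 3629 to 4601 probes (1848 to 2409 higher, 1781 to 2192 lower). The animals pair the arrays, and 4831 probes were called with no replicate block and 5509 with a fixed replicate block. Without the block, the calls on Cxcr4, Marchf1, H2-Ob, Cd86, Idh2, Plau, Traf6 and Bcl2 were lost. Counts of called genes per list and direction moved by over 1.5 times in 10 cases with the deposited values, 2 without background correction, 2 with cyclic loess, 4 with no filter, 13 with array weights, 27 with the 6 arrays alone and 15 to 20 when an animal was left out.

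The difference of the genotypes was called for 2 probes, both lower in Gch1fl/flTie2cre cells. This count was 30 with the deposited values (22 higher, 8 lower), 19 without background correction (6 higher, 13 lower), 1 with an offset of 50 (lower), 5 among probes detected on 3 arrays of a wild-type group (1 higher, 4 lower), 1 with no replicate block (lower), 7 with a fixed replicate block (7 lower) and 1488 with array weights (789 higher, 699 lower), whose estimation stopped before it converged. Leaving out an animal gave 0 to 8 probes (0 to 4 higher, 0 to 8 lower). At 24 h against 8 h, 4629 probes were called (2479 higher, 2150 lower), 2630 over 2-fold (1372 higher, 1258 lower), and 1593 were higher without background correction. Leaving out an animal gave 2745 to 4513 (1487 to 2400 higher, 1258 to 2113 lower). The cause of these shifts was not tested. A probe undetected on every array of a group gives only a limit there.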
